A study of Mus musculus with 4 samples.

Results

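The enzymes that turn arachidonic acid into leukotrienes, hydroxy fatty acids and prostaglandins were followed in alveolar macrophages (AMs) of mice with and without a breast tumor. The set comprised 10 named genes, Alox5, Alox5ap, Alox12, Alox15, Ltc4s, Lta4h, Ptgs1, Ptgs2, Hpgds and Ptges, and each was found once by its symbol among the 54532 genes of the count table. Bulk RNA-seq had been performed on AMs purified from the lungs of female wild-type mice, which are of a BALB/c background according to the methods of the study. The control group comprised 2 libraries from mice that received no tumor. The other 2 libraries, the tumor group, came from animals that carried a primary tumor of 4T1, a cell line from a mouse breast carcinoma known to seed the lung from the mammary fat pad, for 2 weeks. The labels name no transgene and no drug for either group. The study describes its isolated AMs as CD45+ CD11b- CD11c+ SiglecF+ cells, although the methods for sequencing say only that AMs were purified. Whether a library came from 1 mouse or from pooled mice is not given in the sources used here, so p-values measure only the spread between these libraries.

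Arachidonic acid is freed from membranes by phospholipases and is then taken up by competing enzymes. In the leukotriene branch, 5-lipoxygenase (Alox5) acts with its membrane partner FLAP (Alox5ap) to make leukotriene A4, which is converted to leukotriene B4, a neutrophil attractant, by Lta4h, or joined to glutathione by Ltc4s to give the cysteinyl leukotrienes. Alox12 and Alox15 insert oxygen at other carbons. In the prostaglandin branch, the cyclooxygenases COX-1 (Ptgs1) and COX-2 (Ptgs2) make prostaglandin H2, which Hpgds turns into prostaglandin D2 and Ptges into prostaglandin E2, a lipid known to dampen T cell and macrophage responses. AMs are a known source of leukotrienes and prostaglandins in the airspace.

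Total counts were between 16167147 and 19205737 per library, and a value of 3 counts or fewer, equal to 0.153 to 0.190 CPM (counts scaled to the TMM-adjusted library size), was taken as the floor for reading expression. The floor covers counting error only. AM identity was present in all 4 libraries, since the summed level of 14 AM markers, Siglecf, Marco and Car4 among them, was 16406 and 16551 CPM in the control and 12549 and 12691 CPM in the tumor libraries. The tumor libraries also held transcripts of other cells that were almost missing from the controls, with eosinophil markers at 2688 to 2731 CPM and neutrophil markers at 3747 to 3789 CPM in sum. Because 12 of the 14 AM markers were lower in the tumor group, every change was also computed with libraries scaled on the sum of these markers. That scaling moved the median change over the tested genes up by 0.38 (log2), so calls can depend on the scaling. In bulk RNA, fewer cells of a type and less RNA per cell cannot be told apart.

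The comparison asked which steps of eicosanoid synthesis differed in AMs between tumor-bearing and control mice. With edgeR's quasi-likelihood test and Benjamini-Hochberg adjustment over 14256 tested genes, 7 of the 9 enzymes that passed the filter had an adjusted p under 0.05, against 53.8% of all tested genes. Of these, 5 were higher in the tumor libraries (Alox15, Ptgs2, Lta4h, Ptgs1 and Alox5ap), where 29.0% of tested genes were higher, and 2 were lower (Hpgds and Ptges), where 24.8% were lower. Alox5 and Ltc4s did not pass, and Alox12 was too low to be tested. In 8 of the 9 tested enzymes the libraries of the 2 groups did not overlap in CPM, which was also true of 75.1% of all tested genes. With so broad a difference between the groups, the share of enzymes called says little about them, and the values that follow give which enzymes moved and how far. Under scaling on the AM markers all 9 tested enzymes were called, 7 higher and 2 lower. Of all 14256 tested genes 9813 were then called, 8777 higher and 1036 lower. The share of these calls that were higher was 89.4%, against 53.9% under TMM scaling.

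**Figure D1:**
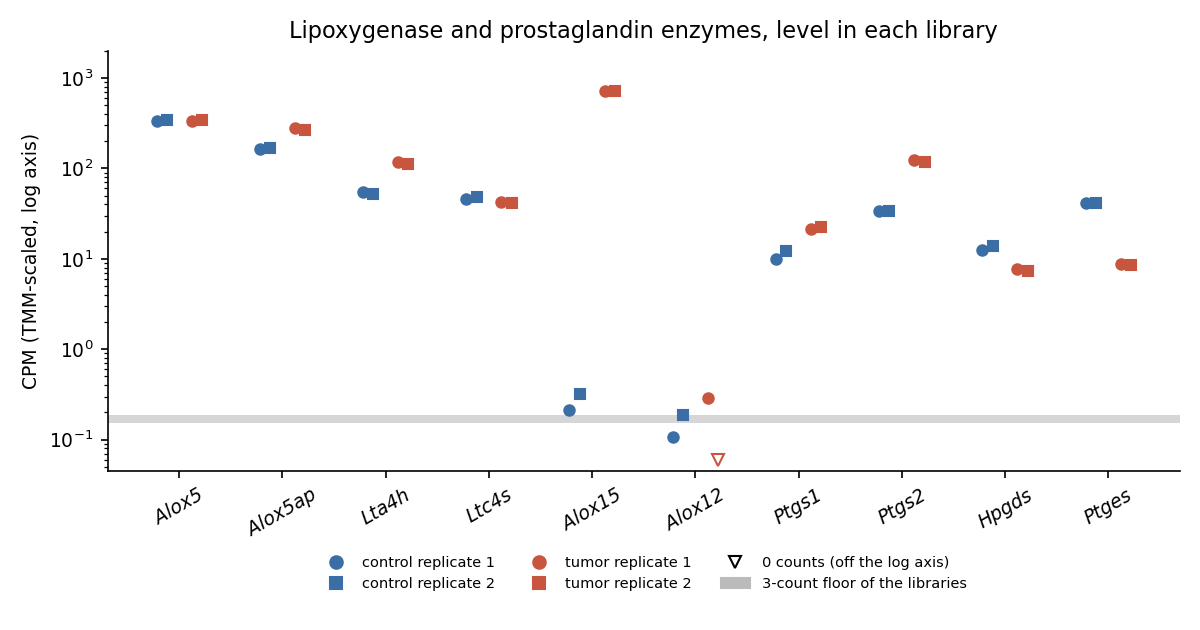
Level of each enzyme gene in CPM (TMM-scaled, log axis) in each of the 4 libraries, with circles for replicate 1, squares for replicate 2 and a grey band for 3 counts. Alox15 rose from just above the floor to between 716.9 and 723.3 CPM, Ptges and Hpgds were lower in both tumor libraries, and Alox5 did not separate the groups.

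In the leukotriene branch, the partner of 5-lipoxygenase and the hydrolase rose, while Alox5 itself differed by less than its error. Alox5 (ENSMUSG00000025701, minus strand of chromosome 6, 116410077 to 116461178, GRCm38) was at 335.9 and 339.1 CPM in the control libraries and at 336.1 and 338.9 CPM in the tumor libraries. The groups overlapped fully. Its log2 fold change was 0.00028 ± 0.028 (SE, edgeR adjusted p of 0.994). This reading rests on TMM scaling, as Alox5 was higher by 0.38 under scaling on the AM markers and by 0.07 with total counts as library sizes, with edgeR adjusted p of 9.54e-12 and 0.0452.

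Alox5ap, the integral membrane protein that presents arachidonic acid to 5-lipoxygenase (chromosome 5, plus strand, 149264767 to 149288153), was at 162.1 and 169.5 CPM in the control and 276.3 and 264.8 CPM in the tumor libraries. Both tumor libraries lay above both controls. The log2 fold change was 0.71 ± 0.035 (SE), or 1.63-fold, with an edgeR adjusted p of 2.99e-16. An antisense gene, Gm19719, overlaps it and held at most 108 counts against 2678 or more for Alox5ap in any library. Because a setting for strand is not given in the sources used here, the reads of this pair cannot be fully told apart.

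Lta4h, which hydrolyses leukotriene A4 to leukotriene B4 (chromosome 10, plus strand, 93453411 to 93484875), was at 55.1 and 51.9 CPM in the control and 118.1 and 112.8 CPM in the tumor libraries. Its log2 fold change of 1.11 ± 0.052 (SE), or 2.15-fold, had an edgeR adjusted p of 1.02e-16. The rise was well beyond the spread of either pair. Ltc4s, which makes leukotriene C4 (chromosome 11, minus strand, 50236461 to 50238616), was at 45.6 and 48.4 CPM in the control and 42.9 and 41.8 CPM in the tumor libraries. The groups did not overlap, but the difference of -0.15 ± 0.069 (log2, SE) did not pass, with an unadjusted p of 0.0397 that edgeR's adjustment raised to 0.0703. Under scaling on the AM markers Ltc4s was instead higher by 0.24, with an adjusted p of 0.00414. The antisense gene Gm26542 overlaps Ltc4s and held 74 to 92 counts. Of the 50-base words in Ltc4s transcripts, 15.2% also occur, read on either strand, in transcripts of Gm26542, the only gene that shares any.

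The ratio of both fates of leukotriene A4 does not depend on how libraries are scaled, although in bulk RNA it can depend on the mix of cells. Per length, in FPKM, Lta4h stood at 0.201 and 0.178 of Ltc4s in the control libraries and at 0.458 and 0.448 of it in the tumor libraries. The ratio was thus 2.39 times as large in the tumor group, and its libraries did not overlap. Alox5ap stood at 1.40 and 1.45 of Alox5 in the control and at 2.38 and 2.26 of it in the tumor libraries. With 2 libraries per group the smallest two-sided p of an exact permutation test is 0.333, so the ratios are given as values with no test.

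Among the lipoxygenases that act at other carbons, Alox15 showed the largest change of the 10 genes. Mouse Alox15 encodes the leukocyte 12/15-lipoxygenase, an enzyme of eosinophils and of some resident macrophages (chromosome 11, minus strand, 70344152 to 70352031). Only 4 and 5 counts were found in the controls, against 12541 and 14084 in the tumor group. Controls therefore sat only just above the floor, at 0.213 and 0.316 CPM, while the tumor libraries reached 723.3 and 716.9 CPM. The log2 fold change was 11.40 ± 0.38 (SE, edgeR adjusted p of 1.58e-36). Because the fold rests on 9 control counts, its size is loosely fixed. The ratio of pooled, depth-scaled counts was 2765, with an exact 95% interval of 1456 to 6048 that covers counting error only. Eosinophil markers rose in the same libraries, from at most 0.639 CPM in sum, and their part in this result was not tested. None of the 50-base words in Alox15 transcripts occurred in transcripts of another gene, so reads of related lipoxygenases could not match it perfectly over that length.

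Alox12, the platelet-type 12-lipoxygenase (chromosome 11, minus strand, 70241457 to 70255353), lies in the same cluster of lipoxygenase genes. Its counts were 2 and 3 in the controls and 5 and 0 in the tumor group. No difference was detectable at this depth, with a ratio of 0.935 and an exact 95% counting interval of 0.215 to 4.06. Alox12e, the epidermal-type 12-lipoxygenase, lies between both genes and is no member of the set. No read was counted in either control, against 147 and 165 counts in the tumor group, a rise of at least 44.2-fold. Of 4 other lipoxygenases 2 were tested, and Aloxe3, the second, was not called at 0.74 but was higher by 1.13 under scaling on the AM markers (edgeR adjusted p of 0.0259).

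In the prostaglandin branch both cyclooxygenases rose. Ptgs2, the inducible isoform COX-2 (ENSMUSG00000032487, chromosome 1, plus strand, 150100031 to 150108227), was at 33.7 and 33.9 CPM in the control and 124.0 and 116.6 CPM in the tumor libraries. Its log2 fold change was 1.83 ± 0.058 (SE), or 3.56-fold, with an edgeR adjusted p of 6.24e-21. Ptgs1, the isoform COX-1 that most cells express constitutively (chromosome 2, plus strand, 36230426 to 36252272), was at 9.91 and 12.3 CPM in the control and 21.5 and 22.2 CPM in the tumor libraries. Its log2 fold change was 0.98 ± 0.12 (SE), or 1.98-fold, with an edgeR adjusted p of 4.52e-08. For both genes each tumor library exceeded each control. Ptgs2 made up 74.2% and 70.0% of cyclooxygenase FPKM in the controls, against 83.1% and 81.6% in the tumor group.

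Both enzymes downstream of the cyclooxygenases were lower. Ptges, the inducible microsomal prostaglandin E synthase that is known to work together with COX-2 (ENSMUSG00000050737, chromosome 2, minus strand, 30889471 to 30929863), was at 41.8 and 41.3 CPM in the control and 8.71 and 8.45 CPM in the tumor libraries. This was the largest fall of the set. The log2 fold change was -2.28 ± 0.10 (SE), or 4.84-fold lower, with an edgeR adjusted p of 1.65e-17. Hpgds, the hematopoietic prostaglandin D synthase of mast cells, macrophages and Th2 cells (chromosome 6, minus strand, 65117293 to 65144908), was at 12.5 and 13.8 CPM in the control and 7.73 and 7.38 CPM in the tumor libraries. Its log2 fold change was -0.80 ± 0.14 (SE), or 1.74-fold lower, with an edgeR adjusted p of 2.07e-05. Both falls remained under scaling on the AM markers, at -1.89 for Ptges and -0.41 for Hpgds, with edgeR adjusted p of 3.11e-15 and 0.0115.

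Transcripts of COX-2 and its partner synthase thus moved in opposite directions in the same libraries. Ptgs2 stood at 0.692 and 0.705 of Ptges per length in the controls and at 12.2 and 11.8 times Ptges in the tumor group. The Ptgs2 to Ptges ratio was 17.2 times as large in the tumor group. Relative to Hpgds, Ptgs2 went from 3.79 and 3.45 times to 22.5 and 22.2 times. Hpgds, the less abundant of both synthases, moved from 0.183 and 0.204 to 0.543 and 0.534 of Ptges. None of these ratios overlapped between the groups, and none depends on library scaling. In bulk RNA they can still depend on the mix of cells, and the part of other cells in them was not tested.

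**Figure D2:**
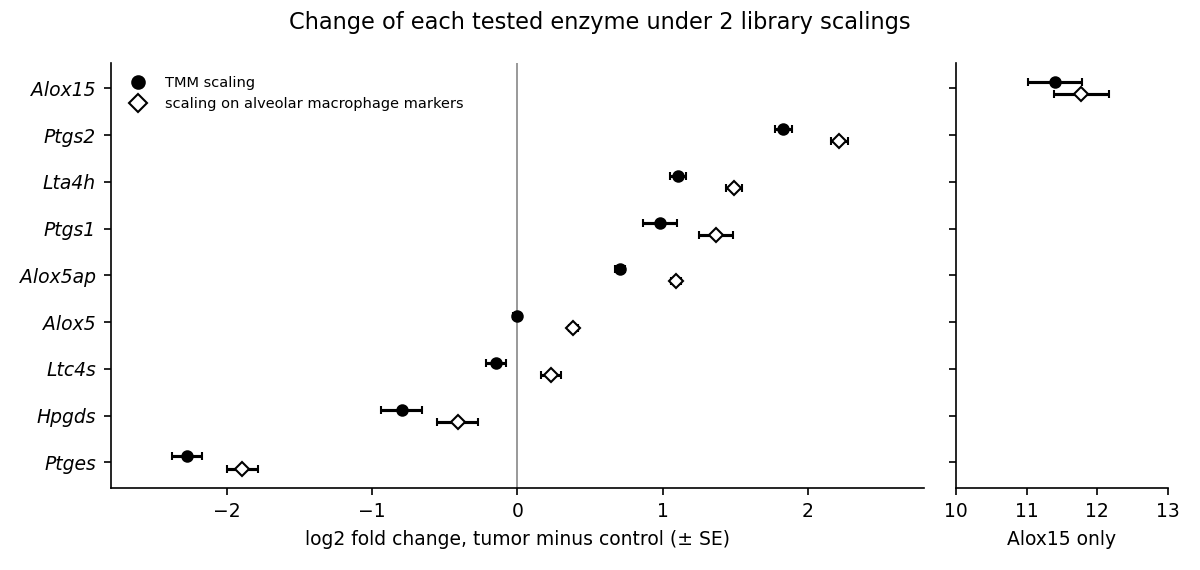
Log2 fold change (tumor minus control, with SE bars, 2 libraries per group) of the 9 tested enzymes under TMM scaling (filled circles) and under scaling on AM markers (open diamonds), with Alox15 on an axis of its own. Ptgs2, Lta4h, Ptgs1 and Alox5ap lie above 0 and Hpgds and Ptges below 0 under both scalings, whereas Alox5 and Ltc4s change their reading with the scaling.

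The promoter sequences of these 4 prostaglandin genes are shown because the genes moved in opposite directions and the study is concerned with AHR, the aryl hydrocarbon receptor, which binds DNA elements with the core GCGTG once a ligand has activated it. RefSeq promoter sequences (GRCm38.p6) were at hand for 8 of the 10 enzymes, all but Alox5ap and Alox15. The 250 bases upstream of the RefSeq start site are printed 5′ to 3′ on the strand of the gene, and capitals mark the GCGTG core on either strand.
Ptgs2, chr1:150099781-150100030, plus strand: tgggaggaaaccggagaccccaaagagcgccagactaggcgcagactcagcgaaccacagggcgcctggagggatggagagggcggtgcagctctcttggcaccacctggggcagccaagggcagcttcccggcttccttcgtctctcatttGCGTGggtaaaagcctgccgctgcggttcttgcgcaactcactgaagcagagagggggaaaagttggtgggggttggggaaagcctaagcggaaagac
Ptgs1, chr2:36230176-36230425, plus strand: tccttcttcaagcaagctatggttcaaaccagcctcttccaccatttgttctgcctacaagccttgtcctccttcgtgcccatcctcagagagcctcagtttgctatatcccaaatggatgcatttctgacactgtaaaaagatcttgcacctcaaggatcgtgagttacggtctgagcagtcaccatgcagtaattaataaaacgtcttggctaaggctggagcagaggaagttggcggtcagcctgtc
Ptges, chr2:30903298-30903547, minus strand: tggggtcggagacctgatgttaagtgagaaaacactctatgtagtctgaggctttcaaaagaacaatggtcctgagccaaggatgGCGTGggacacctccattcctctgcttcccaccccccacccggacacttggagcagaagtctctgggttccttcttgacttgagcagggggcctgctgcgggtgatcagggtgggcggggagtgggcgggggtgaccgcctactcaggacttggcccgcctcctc
Hpgds, chr6:65144731-65144980, minus strand: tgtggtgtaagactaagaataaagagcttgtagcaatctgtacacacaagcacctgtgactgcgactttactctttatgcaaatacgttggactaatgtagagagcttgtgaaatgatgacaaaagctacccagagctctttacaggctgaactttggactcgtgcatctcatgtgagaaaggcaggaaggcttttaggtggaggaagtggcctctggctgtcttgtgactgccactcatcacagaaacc
The core was present once in Ptgs2, from base -98 to -94, and once in Ptges, from -165 to -161. Thus a gene that rose and a gene that fell both carried it, and the other 6 promoters, among them those of Ptgs1 and Hpgds, held no match. The letters GCGTG occurred in 28.2% of all 32851 RefSeq promoter windows of this length. The GC box GGGCGG was found in 4 of the 8 enzymes, Ptgs2, Ptges, Alox5 and Alox12, and in 32.7% of all windows. A C/EBP-type motif, TTNNGNAA, was found in Ptgs2, Ptges, Hpgds and Alox12 and in 36.8% of all windows, and in Ptgs2 the match from -69 to -62 read on both strands. The STAT5-type motif TTCNNNGAA, the AP-1 motif TGANTCA, the CRE core TGACG and the TATA box TATAAA were searched on both strands and had no match in the 8 windows. Each window ends at the RefSeq start site, so sites beyond it, in Ptgs2 as in the other genes, were not searched. A match is a description of letters only, and for Ptges, Hpgds and Ltc4s the RefSeq start lies inside the span given in the count table, so that part or all of the window lies within that span.

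Levels of different genes were compared per length, as FPKM on the gene lengths in the count table. In the control libraries the order was Alox5ap at 116.8 ± 3.65, Alox5 at 82.2 ± 0.55, Ltc4s at 46.4 ± 1.95, Ptges at 10.6 ± 0.081, Lta4h at 8.77 ± 0.37, Ptgs2 at 7.38 ± 0.038, Ptgs1 at 2.86 ± 0.44 and Hpgds at 2.04 ± 0.15 FPKM (SD, n = 2), with Alox15 and Alox12 last. Genes of the leukotriene branch thus held the top 3 places in control AMs. In the tumor libraries Alox15 led at 293.4 ± 1.85 FPKM, followed by Alox5ap at 190.5 ± 5.69 and Alox5 at 82.2 ± 0.49 (SD, n = 2). Ptgs2 moved from the sixth place to the fifth, at 26.3 ± 1.14, and Ptges from the fourth to the eighth, at 2.18 ± 0.047 FPKM (SD, n = 2). Neighbouring genes in these orders did not overlap in their ranges over the libraries, apart from the caveat that Alox15 and Alox12 in the control libraries rest on 2 to 5 counts each and cannot be ranked at this depth. Gene lengths in the table are fixed for all libraries, so a gene with many or long isoforms, such as Lta4h or Hpgds, may be placed too low.

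The summed level of the 10 enzymes rose from 272.6 and 281.6 FPKM in the control to 668.8 and 655.4 FPKM in the tumor libraries. Without Alox15 the sums were 272.5 and 281.5 against 374.1 and 363.3 FPKM. Alox15 alone held 44.1% and 44.6% of the sum in the tumor libraries, and at most 0.0458% in a control library. The share of Ltc4s in this larger sum went from 16.5% and 16.95% to 6.32% and 6.30%, although its own level was not called as changed, and that of Ptges went from 3.90% and 3.73% to 0.331% and 0.328%.

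**Figure D3:**
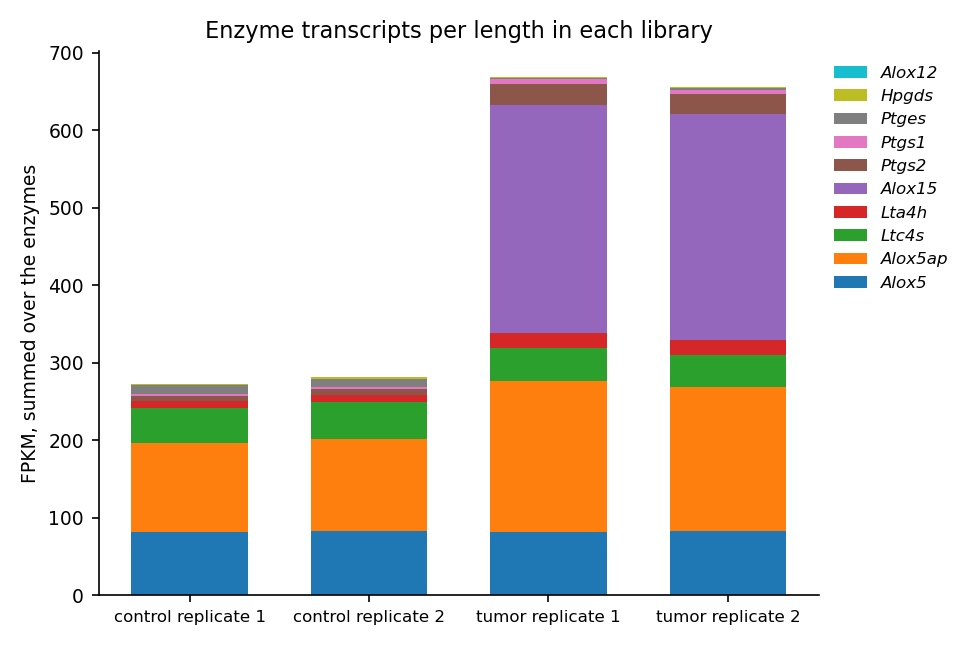
FPKM of the 10 enzyme genes stacked for each of the 4 libraries. The bars reach 272.6 and 281.6 FPKM in the control and 668.8 and 655.4 FPKM in the tumor libraries, and most of the added height is Alox15 and Alox5ap, while the Alox5 segment lies between 81.8 and 82.6 FPKM in all 4 under the TMM scaling used here.

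The other genes of the pathway were read from 57 symbols in 7 role groups, which corresponded to 58 genes because Dpep2 names 2 identifiers. Of the 42 tested, 11 were higher and 12 were lower, shares close to the 29.0% and 24.8% of all tested genes, so that these counts and those by role below are descriptions of the list. The median log2 fold change was -0.09, against 0.02 for all tested genes. Under scaling on the AM markers 20 were higher and 4 lower, where 8777 and 1036 of all 14256 tested genes were. The small falls below are thus relative to TMM scaling. Among phospholipases, which release arachidonic acid or other lipids, 1 of 7 tested was higher and 3 were lower. Pla2g4a, the cytosolic phospholipase A2 that feeds both branches, was not called, with a log2 fold change of -0.04 and 966 to 1111 counts per library, but it was higher by 0.34 under scaling on the AM markers (edgeR adjusted p of 2.21e-05). Pla2g7, which degrades platelet-activating factor, rose by 2.13 (log2), to a mean of 218.6 ± 0.32 CPM in tumor against 49.8 ± 2.79 CPM in control libraries (SD, n = 2). Pla2g2d, a secreted phospholipase of resident macrophages and dendritic cells, fell from 59 and 40 counts to 5 in each tumor library, by 3.36 on the log2 scale, and Pla2g6 fell by 0.83. Both falls were also called under scaling on the AM markers.

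Of the other prostanoid synthases none was called higher, and 2 of 5 tested were lower. Ptges3, the cytosolic prostaglandin E synthase and HSP90 cochaperone p23, changed by -0.35 and Tbxas1, the thromboxane synthase, by -0.15. Under scaling on the AM markers Ptges3 was no longer called and Tbxas1 was higher, by 0.24. Both remained abundant, at 101.6 ± 3.07 and 233.8 ± 3.15 CPM in the tumor libraries (SD, n = 2). Prostacyclin synthase (Ptgis) and the lipocalin-type prostaglandin D synthase (Ptgds) were too low to be tested, with at most 8 and 17 counts. Of the genes listed under leukotriene conversion, 2 of 7 tested were higher and 2 lower. Ggt5, the gamma-glutamyl transferase that acts on leukotriene C4, rose by 1.02. Its relative Ggt1 went from 0 and 2 counts in the controls to 67 and 44 in the tumor group, a rise of at least 11.8-fold, or 20.4-fold without tumor replicate 2. Dpep3 fell by 1.03. Mgst3 changed by -0.26, a call that was lost without control replicate 2, without tumor replicate 2, with total counts, with the DESeq2 Wald test and under scaling on the AM markers, where it was 0.12.

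Among genes of eicosanoid breakdown and transport, 2 of 9 were higher and 1 was lower. Cyp4f18, a leukotriene B4 hydroxylase of neutrophils, rose by 6.32 ± 0.12 (log2, SE), to a mean of 284.8 ± 8.71 CPM in tumor against 3.55 ± 0.18 CPM in control libraries (SD, n = 2). Ephx2, the soluble epoxide hydrolase, had 4 and 8 counts in the control and 118 and 163 in the tumor libraries. It rose by 4.42, by 3.88 without control replicate 1 and by 5.10 without control replicate 2. Hpgd, the dehydrogenase that inactivates prostaglandins, was not called, with a log2 fold change of -0.21. The exporter Abcc1 changed by -0.20, a call that was lost without control replicate 1 and turned to a rise of 0.18 under scaling on the AM markers.

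Receptors for the products were read in the same way, against 53.8% of all tested genes called. Of the leukotriene and lipoxin receptors, 3 of 6 tested were higher and 1 was lower. Ltb4r1, the high-affinity leukotriene B4 receptor, went from 12 and 5 counts in the controls to 714 and 781 in the tumor group. It rose by 6.34 ± 0.35 (SE) on the log2 scale, by 6.97 without control replicate 1 and by 5.96 without control replicate 2. Cmklr1, a receptor of chemerin and of a resolvin, rose by 1.77. The formyl peptide receptor Fpr2, which also binds lipoxin A4, was abundant and changed by -0.35, from 507.4 ± 4.05 to 398.4 ± 5.84 CPM (SD, n = 2), and was not called under scaling on the AM markers. Of the prostanoid receptors, 2 of 6 tested were higher and 3 lower. Ptger4, a prostaglandin E2 receptor that signals through cyclic AMP, fell by 0.80 ± 0.042 (SE), from 173.2 ± 6.13 to 99.7 ± 3.98 CPM (SD, n = 2), and by 0.41 under scaling on the AM markers. The prostacyclin receptor Ptgir changed by -0.60, a call that was lost without control replicate 1 and under scaling on the AM markers, where it was -0.21 with an edgeR adjusted p of 0.252. Ptger3 was not counted in either control and had 50 and 61 counts in the tumor group, a rise of at least 15.2-fold. Ptger1 was called higher at 0.49 although its groups overlapped. That call was lost with the replicate block, the DESeq2 Wald test and limma-voom, at adjusted p of 0.0677, 0.187 and 0.0841, and also without control replicate 1 or without tumor replicate 1.

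**Figure D4:**
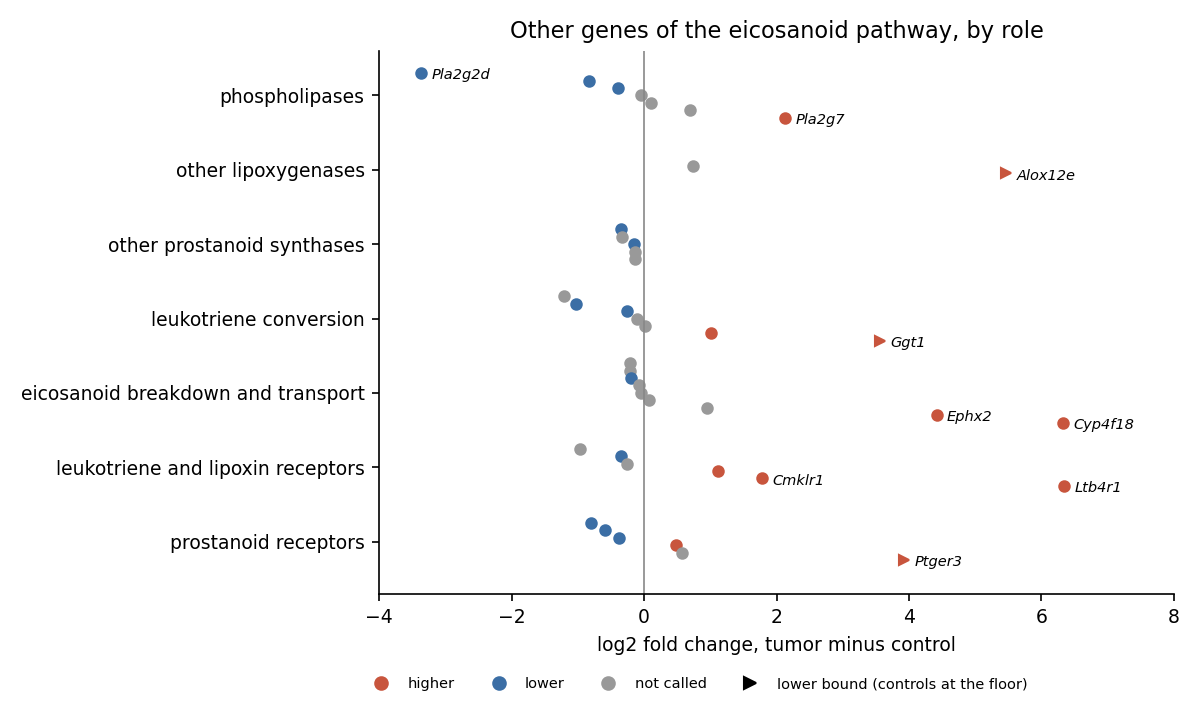
Log2 fold change (tumor minus control) of the 42 tested pathway genes outside the set, by role, with red for called higher, blue for called lower and grey for not called, and triangles for lower bounds of genes whose controls were at the floor. The median is -0.09, and the points above 2 are Pla2g7, Alox12e, Ggt1, Ephx2, Cyp4f18, Ltb4r1 and Ptger3.

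Several of these genes are known to be expressed by granulocytes, and lists of other cell types were therefore read in the same libraries. All 6 eosinophil genes were called higher, with a summed level of 2688 to 2731 CPM in tumor against 0.633 to 0.639 CPM in control libraries, and for 4 genes neither control exceeded the floor. The defining eosinophil genes Prg2 and Epx had 1 count in each control library. All 10 neutrophil genes were called higher, with sums of 9.86 to 9.998 CPM and 3747 to 3789 CPM. Eosinophils are known to express Alox15, Alox5 and Ltc4s, and neutrophils to express Alox5, Alox5ap, Lta4h, Ltb4r1 and Cyp4f18. Both cell types are known to carry CD11b, which the sort described for AMs leaves out, and eosinophils also carry SiglecF. Itgam, the gene of CD11b, was itself higher in the tumor libraries, by 6.86 on the log2 scale (edgeR adjusted p of 4.45e-28). The part of these cells in the changes of Alox5ap, Lta4h, Ptgs2, Ltb4r1 and Cyp4f18 was not tested. Of 8 basophil and mast cell genes, 5 were tested and all 5 were higher, and the sums were 0.266 to 0.380 CPM and 50.6 to 55.8 CPM. The 5 were Mcpt8, Cpa3, Ms4a2, Fcer1a and Gata2, while the mast cell genes Cma1, Tpsb2 and Mcpt4 never exceeded 7 counts and were not tested.

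Platelets are the best known source of Alox12 and Ptgs1. Of 8 platelet genes 3 were tested. Itga2b was higher, Pf4 was lower, from 55 and 48 counts to 14 and 9, and Gp1ba was not called, at 32 to 42 counts per library. Ppbp and Gp1bb had at most 1 count in any library. Alox12 was near 0 in all 4 libraries. Resident peritoneal macrophages are known for high Alox15. Of 6 genes listed for them 5 were tested and 3 were higher, namely Icam2, F5 and Selp, with sums of 4.81 to 5.11 CPM and 316.5 to 339.5 CPM, of which F5 alone held 302.5 to 323.8 CPM in the tumor libraries. Timd4 and Garnl3 were not called, and the defining factor Gata6 had at most 1 count in any library. The monocyte and interstitial macrophage list had sums of 38.9 to 39.0 CPM in the control and 34.8 to 37.0 CPM in the tumor libraries, with 2 genes higher and 4 lower of 7 tested. All 7 hepatocyte genes were called higher, from at most 0.190 CPM to between 624.8 and 631.0 CPM. These counts stand against 29.0% higher and 24.8% lower among all tested genes. Of the remaining lists, higher and lower genes numbered 3 and 1 of 7 tested for dendritic cells, 2 and 0 of 5 for T and innate lymphoid cells, 1 and 0 of 1 for NK cells, 5 and 0 of 5 for B cells, 0 and 2 of 4 for alveolar type 2 cells, 0 and 2 of 3 for club cells, 2 and 0 of 4 for endothelium, 4 and 0 of 4 for fibroblasts, and 2 and 2 of 4 for epithelial genes shared with 4T1 cells. Under scaling on the AM markers the alveolar type 2 list turned to 2 higher and 0 lower, the T and innate lymphoid list to 4 and 0, the monocyte and interstitial macrophage list to 3 and 4, and the AM list itself to 5 and 8.

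**Figure D5:**
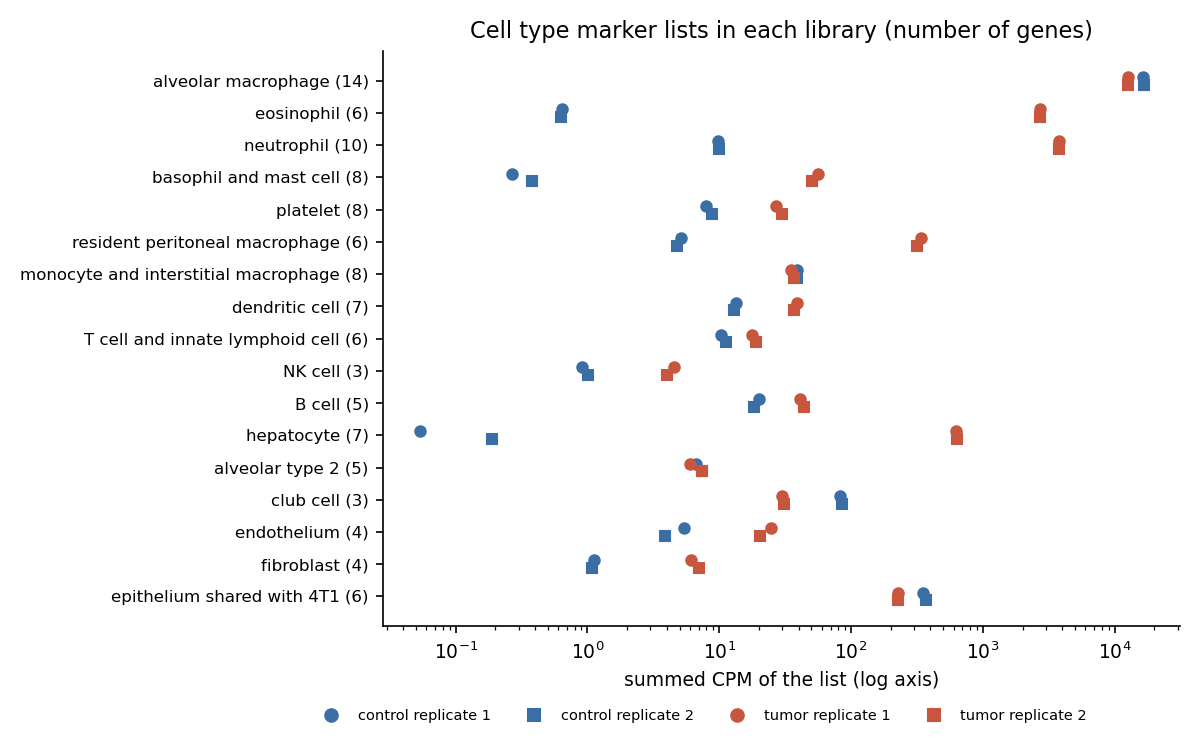
Summed CPM (log axis) of each cell type marker list in each library, with the number of genes of the list in brackets, blue for control and red for tumor libraries. Eosinophil and neutrophil lists lie above 2688 CPM in the tumor and at or below 9.998 CPM in the control libraries, while the AM list falls from between 16406 and 16551 to between 12549 and 12691 CPM.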

How the data were processed

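The authors aligned the reads with HISAT2 2.0.5 and deposited unnormalized whole-number read counts for each gene and library from featureCounts. The genome build, strand setting and handling of multi-mapping reads are not given in the sources used here. Of the identifiers, 54409 were found in GENCODE release M21 (GRCm38), 98.3% of them at the same position, and its build is used for coordinates. FPKM was computed here with the deposited gene lengths.

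Libraries were grouped by title. Counts were filtered with filterByExpr of edgeR 4.0.16 (minimum count of 10, 14256 genes left), scaled by TMM and tested by quasi-likelihood on group alone (2 residual degrees of freedom). SEs come from the fitted dispersions. Where both controls had 3 counts or fewer, a bound was taken from the lower tumor CPM over the higher control floor. Replicates within a group differed beyond counting error (chi-square per gene of 1.86 and 2.34). Alternatives were DESeq2 1.42.0, limma 3.58.1, other scalings, filters and thresholds, a replicate block, and leaving out each library.

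The enzymes, gene lists and alternatives were chosen with earlier results of these data known. All 10 enzymes are named, and in each role group of the pathway up to 2 rises and 2 falls, the largest by log2 fold change among calls whose higher group averaged 10 counts or more. Pla2g4a, Hpgd, Ptgis, Ptgds, Itga2b, Pf4, Gp1ba, Gp1bb, Icam2, F5, Selp, Timd4, Garnl3, Itgam, Aloxe3 and the single basophil and mast cell genes were chosen after their values were seen. Promoter sequences are from RefSeq.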

Additional observations from a re-analysis of the deposited data

How the results depend on the processing

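All 107 values of the 9 tested enzymes under the alternatives were compared with the reported ones, and 99 kept their direction and their side of the threshold. The others belong to Alox5 and Ltc4s. The log2 fold change of Alox5, which was 0.00028, was -0.0038 with DESeq2 size factors, -0.0038 with the DESeq2 Wald test, -0.016 with no filter on low counts, and between -0.0066 and 0.0062 with 1 library left out, none of them called. It was called higher with total counts as library sizes (0.07) and with scaling on the AM markers (0.38). Ltc4s turned from -0.15 to 0.24 under scaling on the AM markers. The called enzymes numbered 6 with at least 10 counts in every library, where Alox15 was not tested, 8 with total counts and 9 with scaling on the AM markers. Of all genes, 6517 of 12279, 7635 of 14256 and 9813 of 14256 tested were called under these settings, in that order.

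Requiring a log2 fold change of at least 1 as well left 4 enzymes (3 higher, 1 lower), 12 of the other pathway genes, against 23, and 2268 of all genes, against 7671. With 1 library left out the pathway genes called ranged from 20 to 22 and all genes called from 6502 to 7387. In these fits the lone library of a group is assumed to vary like the other group. Same-numbered libraries did not deviate together (correlation of 0.023 over 10750 genes), so the numbers were not taken as pairs. With the replicate block 7 enzymes, 22 pathway genes and 7446 genes were called. Genes near the floor, Alox12 and the controls of Alox15, are limited by depth.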
